A study of Mus musculus with 2 samples.

Results

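The genes described here are 10 heat shock and chaperone genes of mouse, chosen by symbol from the 55357 genes of the deposited gene lists: Hspa1a, Hspa1b, Dnajb1, Hsph1, Hspa8, Hsp90aa1, Hsp90ab1, Hspd1, Hspe1 and Hspa5. Each symbol matched 1 gene identifier (Hspa1a is ENSMUSG00000091971 and Hspa1b ENSMUSG00000090877), and all 10 had UMIs in both libraries. A UMI, or unique molecular identifier, marks 1 captured messenger RNA molecule in 1 cell. Levels are given as CPM, the UMIs of a gene per 1000000 UMIs, which with a 3' kit count molecules and carry no gene length. The data came from 2 droplet libraries of ileum T cells, 1 labelled SAP and 1 labelled Control, made with a 10x Genomics 3' kit. Per the design text, dendritic cells were treated with phages from SAP mice or from healthy mice and then cultured with gut T cells of germ-free (GF) mice, and T cells that touched a presenting cell were tagged on their surface by FucoID, an enzymatic proximity label. The labels do not say which cell fraction was loaded or whether the Control dendritic cells received phages from healthy mice. Nor do they say how many animals stand behind a library, or give their age, sex or strain. With 1 library per group no difference between SAP and Control has a replicate check, and all intervals below are exact 95% intervals for counting error only.

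Chaperones bind unfolded or partly folded proteins and keep them from aggregating. In the cytosol, HSP70 proteins bind short hydrophobic stretches and release them in a cycle driven by ATP, J-domain proteins such as Dnajb1 deliver the client and start that cycle, HSP110 proteins such as Hsph1 exchange the nucleotide, and HSP90 takes over late folding steps of kinases and receptors. Proteotoxic stress releases the transcription factor HSF1, which binds inverted repeats of a GAA unit and switches on the inducible genes, while other chaperones are made in every growing cell.

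The members fall into 4 groups by role. Hspa1a and Hspa1b, near-identical neighbouring genes for inducible HSP70, form the stress-inducible group with the co-chaperones Dnajb1 and Hsph1. Hspa8 encodes the constitutive cytosolic HSP70, Hsp90aa1 the inducible and Hsp90ab1 the constitutive HSP90 of the cytosol. Hspd1 and Hspe1 encode HSP60 and HSP10, the chaperonin and its lid in the mitochondrial matrix, and Hspa5 encodes BiP, the HSP70 of the endoplasmic reticulum.

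The sequences upstream of 5 members are shown because they hold the letters by which the 2 stress programmes, HSF1 and the unfolded protein response of the endoplasmic reticulum, are usually recognised. They are the 250 bases before the transcription start in RefSeq (GRCm38.p6), which matched 7 of the 10 members by symbol. Capitals mark matches of inverted GAA units (GAANNTTC or TTCNNGAA, and GAANNTTCNNGAA for 3 units) and of the endoplasmic reticulum stress element (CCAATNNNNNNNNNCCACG), both strands searched.
Hspa1a, chr17:34972157-34972406, minus strand: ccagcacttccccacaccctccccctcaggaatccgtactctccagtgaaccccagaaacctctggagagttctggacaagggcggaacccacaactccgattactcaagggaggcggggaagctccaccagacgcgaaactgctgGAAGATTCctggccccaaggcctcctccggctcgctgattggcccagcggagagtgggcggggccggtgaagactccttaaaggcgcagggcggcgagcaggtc
Hspa1b, chr17:34959239-34959488, minus strand: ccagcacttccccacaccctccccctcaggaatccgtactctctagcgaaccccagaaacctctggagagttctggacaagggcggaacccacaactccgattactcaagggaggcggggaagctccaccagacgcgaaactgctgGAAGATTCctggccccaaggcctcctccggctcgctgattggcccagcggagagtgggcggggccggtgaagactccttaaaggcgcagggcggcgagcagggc
Hsph1, chr5:149636337-149636586, minus strand: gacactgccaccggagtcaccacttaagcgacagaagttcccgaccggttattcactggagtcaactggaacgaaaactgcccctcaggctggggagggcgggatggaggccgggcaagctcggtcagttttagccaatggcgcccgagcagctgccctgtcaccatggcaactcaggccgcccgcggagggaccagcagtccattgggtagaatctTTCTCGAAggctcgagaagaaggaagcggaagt
Hspe1, chr1:55087898-55088147, plus strand: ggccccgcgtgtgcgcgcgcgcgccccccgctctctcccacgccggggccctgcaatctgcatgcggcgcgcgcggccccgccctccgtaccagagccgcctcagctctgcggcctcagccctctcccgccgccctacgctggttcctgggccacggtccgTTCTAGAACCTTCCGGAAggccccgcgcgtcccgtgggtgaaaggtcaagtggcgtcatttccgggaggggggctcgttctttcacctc
Hspa5, chr2:34771840-34772089, plus strand: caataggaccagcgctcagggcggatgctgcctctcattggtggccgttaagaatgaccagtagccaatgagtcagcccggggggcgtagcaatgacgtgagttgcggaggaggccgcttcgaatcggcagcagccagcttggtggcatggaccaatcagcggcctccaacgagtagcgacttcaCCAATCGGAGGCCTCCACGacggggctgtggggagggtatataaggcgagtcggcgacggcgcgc
Hspa1a and Hspa1b both had GAAGATTC, starting 104 bases before the transcription start, and their windows differed at 3 of 250 positions. Hsph1 had TTCTCGAA, starting 33 bases before the start. Hspe1 was the only 1 of the 7 with 3 units, found as a pair of overlapping matches, TTCTAGAACCTTC 89 and GAACCTTCCGGAA 84 bases before the start. Hspa5 had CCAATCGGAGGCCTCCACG, starting 65 bases before the start. Of all 32851 promoter windows of this length, 6.69% held GAANNTTC, 7.17% TTCNNGAA, 0.466% the 3-unit form and 0.113% the endoplasmic reticulum element. In Dnajb1 and Hspd1 these letters were not found in this window, which was taken at 1 of 2 listed starts of each gene. The Hspd1 window, chr1:55088244-55088493 on the minus strand, lies close to that of Hspe1 on the opposite strand. The 3 units of Hspe1 fall outside it, so their absence there does not show that Hspd1 has none nearby.

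SAP had 5203 barcodes with 19144320 UMIs and Control 5737 barcodes with 19142384 UMIs, and 6 barcode sequences occurred in both libraries. After filters on depth, genes, mitochondrial share and doublets, 4675 of 4816 SAP cells and 5290 of 5405 Control cells had at least 2 UMIs of 11 T cell marker genes and were taken as T cells. These cells had a median of 3422 UMIs in SAP and 3126.5 in Control and a median mitochondrial share of 1.48% and 1.18%. All 11 T cell markers were present, with a summed level of 7928 CPM in SAP and 8205 in Control. The 4 lists for dendritic and myeloid, epithelial, stromal and endothelial, and erythroid cells summed to between 2.08 and 176 CPM in the T cells of either library, with Clec9a, Cdh5 and Hbb-bs at 0 in both libraries and Flt3 at 0 in SAP. The B and plasma cell list, with Mzb1 at 0 in both, summed to 27.9 CPM in SAP and 836 in Control. Without the low-marker barcodes described next, the B and plasma cell list summed to 29.4 CPM in SAP and 43.1 in Control, and the epithelial list to 82.6 and 91.2, against 176 and 132 with them. The part of these lists in the differences between the libraries was not tested.

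A small set of very deep barcodes stood apart. It was found by rules chosen after the values were seen: 37 SAP and 14 Control barcodes had less than 1000 CPM of T cell markers, and 27 and 11 of these had a UMI of Folr1, a folate receptor gene. The Folr1 barcodes had a median of 35359 UMIs in SAP and 44094 in Control. Hspd1 reached 1056 CPM in them in SAP, against 183 in the other SAP cells, and 1107 in Control, against 171 in the other Control cells. Hspa1a was lower in them, at 18.97 CPM in the SAP Folr1 barcodes against 743 in the other cells, and 19.997 against 620 in Control. The 27 SAP barcodes held 24.0% of all Hspd1 UMIs of that library and 13.7% of its Hspe1 UMIs, and the 11 Control barcodes held 13.1% and 6.34%. Values of Hspd1 and Hspe1 are therefore given with and without the barcodes under 1000 CPM of T cell markers, called low-marker barcodes below.

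The members split by how evenly cells carried them. Hspa1a, Hspa1b and Dnajb1 had no UMI in most cells and many in a few, whereas Hspa8, Hsp90aa1, Hsp90ab1 and Hspa5 were found in at least 83.1% of the T cells of either library. Hspa1a had 12198 UMIs in SAP and 10683 in Control, which is 705 (692 to 718) and 607 (596 to 619) CPM. No Hspa1a UMI was found in 68.6% of SAP and 72.8% of Control T cells, where a Poisson spread of the same total over cells of the same depths leaves 16.1% and 20.7% without one. The highest 1% of cells, 47 in SAP and 53 in Control, held 24.1% and 27.4% of all Hspa1a UMIs, and the highest single cell had 113 UMIs in SAP and 96 in Control. Most cells thus had no UMI of this inducible HSP70 gene, while 175 SAP and 142 Control cells had 20 or more.

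Hspa1b, its neighbour, had 835 CPM in SAP and 785 in Control. It was at 0 in 63.1% of SAP and 66.9% of Control T cells, with the highest cell at 127 and 113 UMIs. Both genes had a UMI in 22.3% of SAP and 19.5% of Control T cells and neither had one in 54.1% and 59.3%. The pair needs care, since 58.8% of the 50-base words of the Hspa1a transcript and 62.3% of those of Hspa1b are shared between them in GENCODE M21, although 0% are shared within the last 400 bases, where a 3' kit reads. How the authors' counting treated reads that match both genes is not given in the sources used here.

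Dnajb1, the J-domain partner of inducible HSP70, stood at 281 CPM in SAP and 267 in Control. It was at 0 in 61.1% of SAP and 62.7% of Control T cells, where the Poisson spread leaves 41.98% and 45.8%. Hsph1, the nucleotide exchange factor, had 205 CPM in SAP and 191 in Control and was at 0 in 64.4% and 68.1% of cells, against a Poisson share of 51.8% and 56.3%. Both genes were therefore missing from more cells than depth gives, by a smaller margin than Hspa1a and Hspa1b.

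Hspa8, the everyday HSP70, had 1265 CPM in SAP and 1329 in Control and was missing from 11.7% and 11.04% of T cells. Hsp90aa1 stood at 1305 CPM in SAP and 1189 in Control and was missing from 14.3% and 16.9%. Hsp90ab1, the constitutive HSP90, had 2253 CPM in SAP and 2116 in Control, and 5.56% and 5.88% of cells lacked it. Hspa5, the BiP gene, had 1146 CPM in SAP and 1134 in Control and was missing from 12.9% and 14.5%. These 4 genes, too, were missing from more cells than the Poisson spread leaves without them. It leaves 6.72% in SAP and 6.27% in Control for Hspa8, and 6.38% and 7.62% for Hsp90aa1. For Hsp90ab1 it leaves 2.30% and 2.57%, and for Hspa5 7.89% and 8.26%. The highest 1% of cells held between 5.75% and 7.88% of the UMIs of these 4 genes in either library, a far lower share than for Hspa1a.

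Of the mitochondrial pair, Hspe1 was found in most cells and Hspd1 was not. Hspe1, the HSP10 gene, had 506 CPM in SAP and 476 in Control, or 460 and 455 without the low-marker barcodes. It was at 0 in 39.9% and 40.02% of all T cells, where the Poisson spread leaves 24.2% and 27.5%. Hspd1, the HSP60 gene, had 228 CPM in SAP and 192 in Control, or 183 and 171 without those barcodes. It was at 0 in 64.9% of SAP and 67.4% of Control T cells, where the Poisson spread leaves 48.5% and 56.0%. Its share of UMIs in the highest 1% of cells was 29.8% in SAP and 24.0% in Control, and 13.1% and 14.0% without them.

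**Figure D1:**
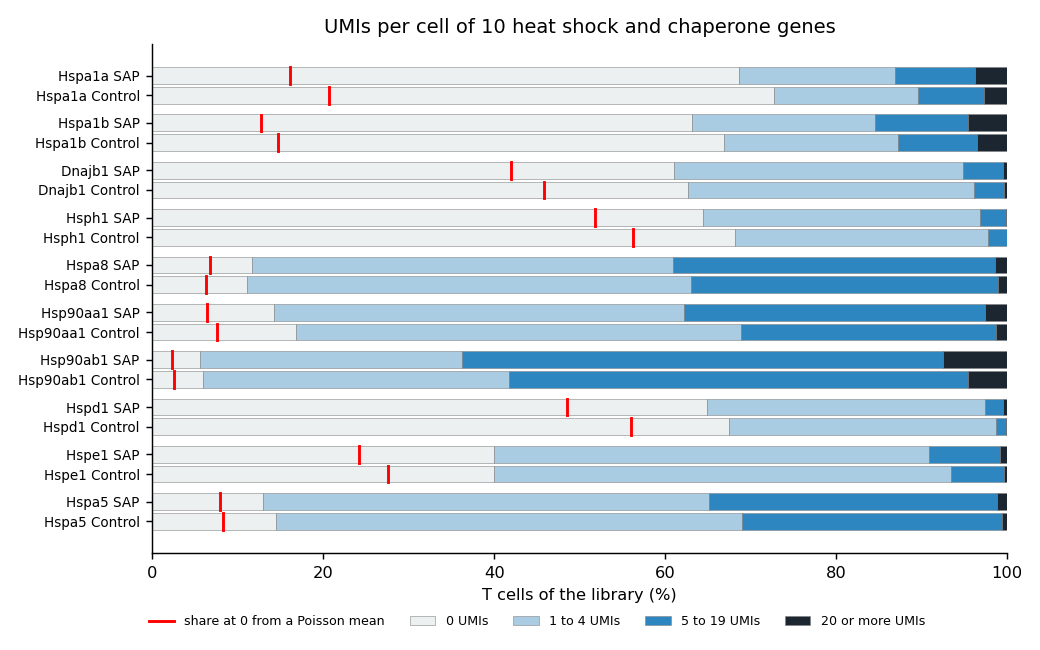
Share of T cells (%, x axis) with 0, 1 to 4, 5 to 19, and 20 or more UMIs of each member, SAP above Control, for 4675 SAP and 5290 Control T cells. Red ticks mark the share at 0 that a Poisson mean scaled to each cell's depth gives; for Hspa1a the share at 0 is 68.6% in SAP and 72.8% in Control, far to the right of the ticks at 16.1% and 20.7%.

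The split remained at equal depth. With 1000 UMIs drawn at random from each T cell, and 401 SAP and 413 Control cells too shallow for it, Hspa1a was found in 20.8% of SAP and 18.0% of Control cells (31.4% and 27.2% before thinning). At this depth Hsp90ab1 was found in 82.9% and 81.6% of cells and Hspa8 in 65.9% and 67.8%. Free RNA can add UMIs to cells that do not express a gene, and its part in these shares was not tested, because no cell type known to lack Hspa1a was available. Before thinning, the much deeper Folr1 barcodes had an Hspa1a UMI in 33.3% in SAP and 36.4% in Control, against 31.4% and 27.1% of the other T cells of median depth 3410.5 and 3125. These shares rested on few molecules, 17 Hspa1a UMIs over 27 SAP barcodes and 8 over 11 Control barcodes. With 1000 UMIs drawn from each, Hspa1a was found in 3.70% (0.0937 to 18.97%) of the SAP Folr1 barcodes, against 20.7% of the other T cells. In Control it was found in 9.09% (0.230 to 41.3%) against 18.0%, and this wide interval includes the share of the other T cells. Because the part of free RNA was not tested, having at least 1 Hspa1a UMI is not read here as expression of the gene.

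An overdispersion value was computed per gene as the squared variation between cells beyond Poisson counting, where 0 means no spread beyond that of counting at each cell's depth. It was 5.74 in SAP and 7.503 in Control for Hspa1a, 4.34 and 5.94 for Hspa1b, 3.37 and 3.39 for Dnajb1, and 5.78 and 7.39 for Hspd1. These 4 of 10 members lay in the highest 10% of 2725 genes in both libraries, a class that holds 9.98% of those genes by its definition. Hsph1 had 1.73 in SAP and 1.91 in Control, just under the class's lower edge of 2.13 and 2.07. Lower values were found for Hsp90ab1, 0.268 in SAP and 0.237 in Control, for Hspa5, 0.306 and 0.335, and for Hspa8, 0.549 and 0.463. The median over the 2725 genes was 0.636 in SAP and 0.632 in Control, and Hsp90aa1 lay close to it, at 0.626 and 0.572. Hspe1 lay above that median, at 1.58 in SAP and 1.65 in Control.

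Leaving out the low-marker barcodes moved Hspd1 most. Hspd1 had 1.53 in SAP and 1.5001 in Control, while Hspa1a had 7.20 and 8.97, and Hsph1 joined the highest 10% with 2.35 in each library. The highest 10% of the 2700 genes tested then held 5 of 10 members in both libraries. Hsp90aa1 had 0.708 in SAP and 0.623 in Control, now above the median over these genes of 0.512 and 0.557.

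**Figure D2:**
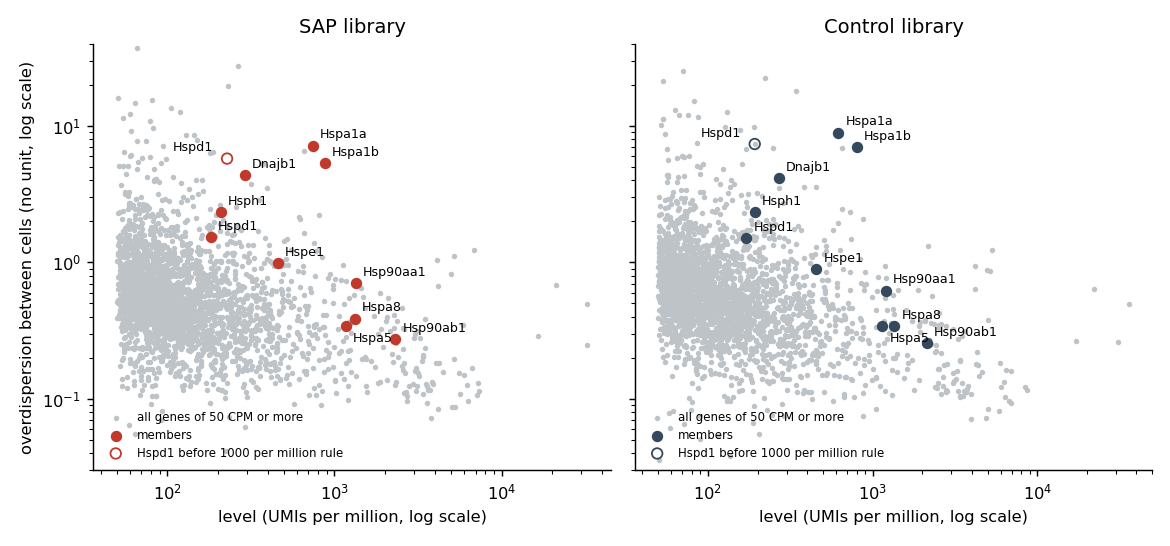
Overdispersion between cells (no unit, log scale) against level (CPM, log scale) for all genes of at least 50 CPM (grey) and the members, without the barcodes under 1000 CPM of T cell markers, SAP left and Control right. Hspa1a lies at 7.20 in SAP and 8.97 in Control, far above genes of its level, and the open circle shows Hspd1 at 5.78 and 7.39 when those barcodes stay in.

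The cells with most inducible HSP70 UMIs had higher levels of 7 of the other 8 members than cells with 0 in both libraries, with counting intervals that did not overlap. For Hspa5 the margin was smaller, and the intervals overlapped in SAP. These intervals leave out the spread between cells. Cells were ranked by the sum of Hspa1a and Hspa1b UMIs, and the levels of the other genes were taken as CPM of the remaining UMIs. Cells with 20 or more such UMIs were 378 of the SAP T cells (8.09%) and 333 of the Control T cells (6.29%), and held 68.7% and 65.7% of all Hspa1a and Hspa1b UMIs. In SAP, Dnajb1 stood at 115, 203, 390 and 1184 CPM in cells with 0, 1 to 4, 5 to 19, and 20 or more Hspa1 UMIs. In Control the same 4 levels were 114, 231, 460 and 1171. This co-chaperone thus climbed at every step in both libraries.

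Hsph1 followed the same order, at 114, 195, 307 and 549 CPM in SAP and 108, 198, 310 and 574 in Control. Hsp90aa1, the inducible HSP90, stood at 916, 1246, 1743 and 2816 in SAP and 900, 1282, 1644 and 2273 in Control. Hspa8 had 997, 1213, 1648 and 2222 in SAP and 1104, 1395, 1684 and 2203 in Control. The constitutive Hsp90ab1 had 1937, 2231, 2702 and 3285 in SAP and 1924, 2144, 2377 and 3041 in Control. For these genes and Dnajb1, each class was higher than the one below it and their counting intervals did not overlap.

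The mitochondrial pair followed too, once the low-marker barcodes were out. Hspd1 then had 123, 175, 247 and 406 CPM in SAP and 125, 179, 230 and 394 in Control, and Hspe1 had 326, 452, 605 and 938 in SAP and 356, 477, 620 and 862 in Control. With those barcodes in, Hspd1 in SAP stood at 139, 316, 246 and 411 CPM, with no steady order. Hspa5 varied less, at 1140, 1115, 1209 and 1193 CPM in SAP, with no steady order and overlapping intervals in the first and last class. In Control it climbed in small steps, at 1103, 1152, 1169 and 1263 CPM, and the intervals of the first and last class did not overlap. Cells of the highest class were deeper, with a median of 4141 UMIs in SAP and 3897 in Control against 3217 and 3029 in cells with 0, and had a lower median mitochondrial share, 1.11% and 0.944% against 1.56% and 1.21%. The part of depth in these steps was not tested.

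**Figure D3:**
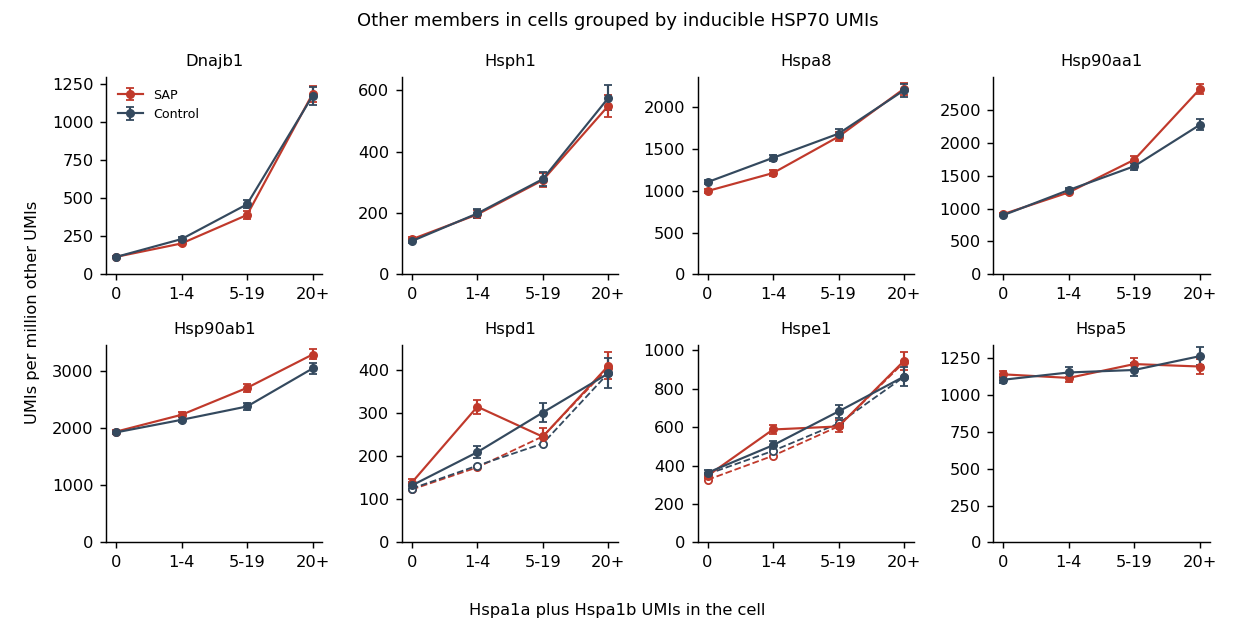
CPM of 8 members, over the other UMIs, (y axis, from 0) in T cells with 0, 1 to 4, 5 to 19, and 20 or more Hspa1a plus Hspa1b UMIs (x axis), SAP in red and Control in blue, bars for exact 95% counting intervals, dashed lines with open points without the barcodes under 1000 CPM of T cell markers. Dnajb1 climbs to 1184 in SAP and 1171 in Control, while Hspa5 stays between 1103 and 1263.

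Correlations between members were computed across cells on residuals from the depth-scaled Poisson mean, over 4675 SAP and 5290 Control cells, each set from 1 library and of mixed depth. Hspa1a and Hspa1b had r = 0.72 in SAP and 0.73 in Control. Hspa1a and Dnajb1 had 0.47 in SAP and 0.48 in Control, and Hspa1b and Dnajb1 0.49 and 0.46. Hspa8 and Hsp90aa1 had 0.46 in SAP and 0.39 in Control, and Hspa8 and Hsp90ab1 had 0.42 and 0.36. Hspa5 lay between 0.01 and 0.08 with Hspa1a, Hspa1b, Dnajb1 or Hsph1 in either library. The median over all 45 pairs of members was 0.23 in SAP and 0.22 in Control.

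Genes of the whole table were ranked for likeness to each member by the lower of their r in the 2 libraries, drawn from the same 2725 genes. Mitochondrially encoded genes, genes with Gm-numbered or Rik names and genes listed only by identifier were left out of this ranking. The 4 nearest genes of Hspa1a were all members, in the order Hspa1b, Dnajb1, Hsp90aa1 and Hsph1, and the fifth was Ubb, a polyubiquitin gene, with 0.34 in SAP and 0.26 in Control. Hspa1b had Hspa1a, Dnajb1, Hsph1 and Hsp90aa1 and, in the fifth place, Jun, an immediate early transcription factor, with 0.28 in SAP and 0.26 in Control. For Dnajb1 and for Hsph1 all 5 nearest genes were members. Hsp90ab1 had Hspa8, Hsp90aa1 and then Dnaja1, a cytosolic J-domain protein, with 0.27 in each library. Hspa8 had Hsp90aa1, Hsp90ab1 and then Ubb, with 0.37 in SAP and 0.32 in Control. Without the low-marker barcodes Hspe1 took the third place of both. It had 0.31 in each library with Hspa8, and 0.29 in SAP and 0.27 in Control with Hsp90ab1. Hsp90aa1 was nearest to Hspa8, Hsp90ab1 and Hsph1. The first 2 nearest genes of each of these 7 cytosolic members were therefore members too.

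Hspa5 had a neighbourhood of its own. Its nearest gene was Calr, the calreticulin gene of the endoplasmic reticulum, with 0.21 in SAP and 0.23 in Control, followed by H3f3b, a histone gene, and Tnfaip3, an NF-kB feedback gene. Hspd1 was nearest to Rps3a3, S100a4 and Rpl36-ps2, with r between 0.42 and 0.50, and Hspe1 to Hspd1, Rps3 and Hsp90aa1. Without the low-marker barcodes the nearest genes of Hspd1 were Hspe1, at 0.33 in SAP and 0.25 in Control, Hspa1a and Hsp90aa1, and those of Hspe1 were Hspa8, Hsp90ab1 and Hsp90aa1. The second nearest gene of Hspa5 was then Hsp90b1, the HSP90 of the endoplasmic reticulum, at 0.19 in SAP and 0.20 in Control.

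The relation to the mitochondrial share of a cell was described because that share is a common sign of damaged cells. T cells with 3 to 10% mitochondrial UMIs (822 in SAP and 629 in Control) were set against those with under 1% (1119 and 2036), with levels as CPM of non-mitochondrial UMIs. Hsph1 was the only member past 1.2-fold higher in both libraries, and Hspd1 and Hspe1 were past 1.2-fold lower. Among 6323 genes, 50.9% were past 1.2-fold higher in both libraries and 15.4% lower, so the share of members higher lay below that of all genes. Hspa1a, Hspa1b, Dnajb1, Hspa8, Hsp90aa1, Hsp90ab1 and Hspa5 had ratios between 0.855 and 1.19. With the low-marker barcodes left out, 1 of 10 members was higher and 1 lower, against 50.5% and 12.7% of 6206 genes, and in SAP Hspa1a then had 0.791 and Hspa1b 0.741.

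Hsph1 stood at 392.3 CPM in high-share cells against 186 in low-share cells in SAP, a ratio of 2.11 (1.88 to 2.36). In Control it stood at 325 against 170, a ratio of 1.91 (1.66 to 2.20). Hspe1 stood at 269 against 613 in SAP, a ratio of 0.439 (0.387 to 0.495), and at 300 against 512 in Control, a ratio of 0.585 (0.509 to 0.671). Hspd1 stood at 168 against 323 in SAP, a ratio of 0.519 (0.442 to 0.606), and at 169 against 233 in Control, a ratio of 0.728 (0.601 to 0.873). The low-marker barcodes bear on this pair: without them the Hspd1 ratio was 0.855 (0.725 to 1.005) in SAP and 0.889 (0.733 to 1.07) in Control, inside 1.2-fold, while Hspe1 stayed at 0.548 and 0.632 and Hsph1 at 2.01 and 1.89.

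High-share cells were also shallow, with a median of 1096 UMIs in SAP and 986 in Control against 4390 and 3788 in low-share cells. Among cells with 2000 to 5000 UMIs, Hsph1 had a ratio of 1.75 (1.40 to 2.15) in SAP and 0.823 (0.535 to 1.21) in Control, above 1 in SAP and not in Control, where 65 high-share cells gave 26 UMIs. High-share cells were still the shallower ones in this range, with a median of 2548.5 UMIs in SAP and 2701 in Control against 3825.5 and 3591.

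In that depth range the members past 1.2-fold in both libraries were instead Hspa1a and Hspa1b, both lower in high-share cells, against 10.7% of genes lower and 22.3% higher. Hspa1a had a ratio of 0.780 (0.684 to 0.886) in SAP and 0.650 (0.517 to 0.807) in Control, and Hspa1b 0.713 (0.625 to 0.810) and 0.420 (0.327 to 0.530). The Control ratios rested on 84 Hspa1a and 71 Hspa1b UMIs in 65 high-share cells. Their intervals leave out the wide spread of both genes between cells. Over all depths the ratios were 0.915 in SAP and 1.05 in Control for Hspa1a, and 0.855 and 1.01 for Hspa1b. The lower levels are therefore given for this depth range only. Hspe1 had 0.816 (0.674 to 0.981) in SAP and 0.959 (0.758 to 1.198) in Control. Hspd1 had 0.926 (0.690 to 1.22) in SAP and 0.884 (0.584 to 1.29) in Control. None of the members past 1.2-fold over all depths (Hsph1, Hspd1 and Hspe1) was thus past it in both libraries in this range. The range held only 116 of the 822 high-share cells in SAP and 65 of the 629 in Control. Most high-share cells were shallower, so these ratios do not show whether the differences of Hsph1, Hspd1 and Hspe1 persist at lower depth.

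**Figure D4:**
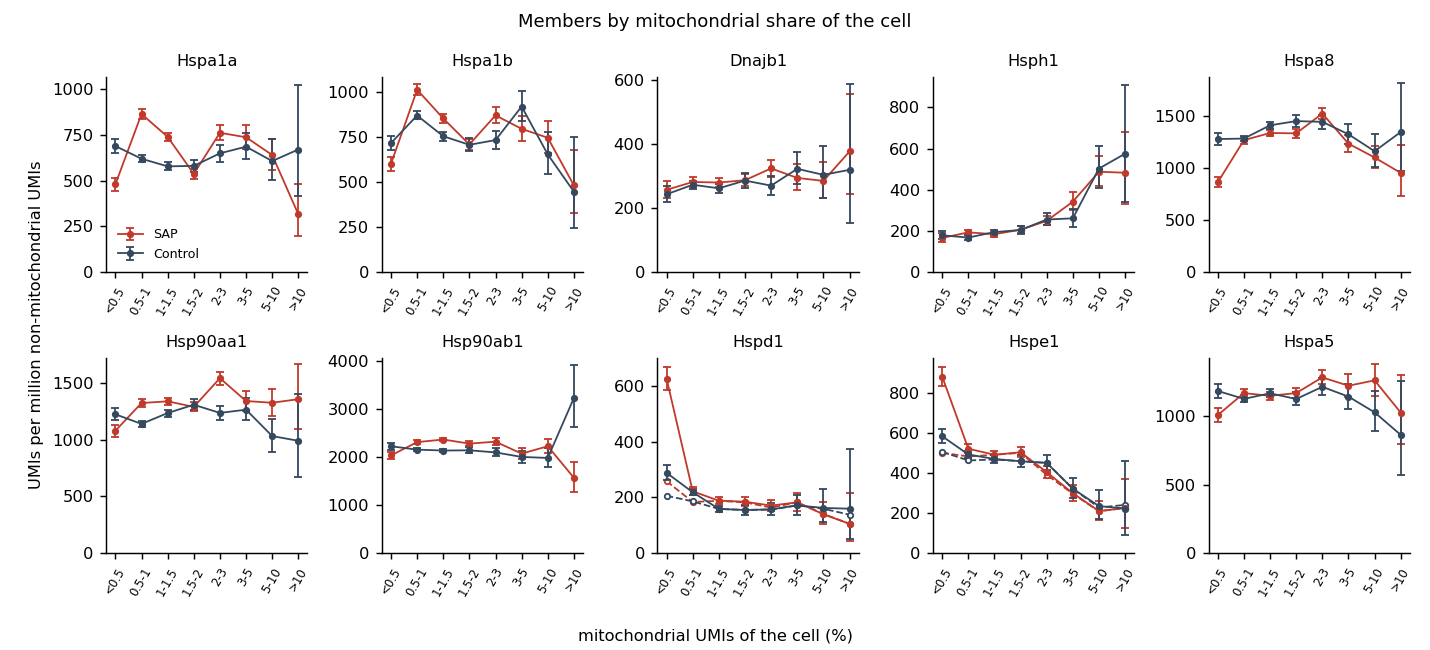
CPM of non-mitochondrial UMIs (y axis, from 0) of each member in T cells by mitochondrial share (x axis, 8 ranges from under 0.5% to over 10%, the last outside the cell filter), SAP in red and Control in blue, bars for exact 95% counting intervals, dashed lines with open points without the barcodes under 1000 CPM of T cell markers. Hsph1 is at 488 in SAP and 503 in Control at 5 to 10%, against 166 and 179 under 0.5%, Hspe1 is at 211 and 236 against 885 and 585, and without those barcodes the level under 0.5% is 502 in SAP and 507 in Control for Hspe1 and 258 in SAP, against 627 with them, for Hspd1.

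Of the other chaperone genes, listed in 8 groups by role, 71 of 72 symbols were in the gene lists and 58 were above the level limit in this comparison. Of these, 17 were past 1.2-fold higher in high-share cells in both libraries and 13 lower, or 18 and 10 without the low-marker barcodes. A smaller share of them was higher than among all genes, where 50.9% were higher and 15.4% lower, or 50.5% and 12.7% without those barcodes. The ratios of these other genes were taken over all depths. Among HSP90 co-chaperones, 4 of 10 were higher and 2 lower, or 3 and 1 without the low-marker barcodes. The highest was Unc45a, a myosin chaperone, with a ratio of 2.42 in SAP and 2.72 in Control. The lowest was Ptges3, the p23 gene, with 0.472 and 0.566, or 0.676 and 0.662 without those barcodes. Hsf1, the gene of the heat shock factor itself, had 2.41 in SAP and 2.10 in Control. The exchange factor list had 2 of 4 genes higher and 1 lower, with Bag6 at 1.75 in SAP and 1.63 in Control and Bag1 at 0.753 and 0.743.

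The endoplasmic reticulum list had 4 of 18 genes higher and 4 lower, with Hyou1, an HSP110 of that compartment, at 2.28 in SAP and 1.82 in Control and Sdf2l1, a BiP cofactor, at 0.393 and 0.314, or 0.632 and 0.380 without the low-marker barcodes. In the chaperonin TRiC, which folds actin and tubulin, 1 of 8 subunits was higher and 3 were lower, with Cct7 at 1.25 in SAP and 1.43 in Control and Cct5 at 0.343 and 0.607. When the low-marker barcodes were left out, 2 of the 8 were higher and 0 lower, and Cct5 had 0.618 in SAP and 0.845 in Control. Among the mitochondrial chaperones the protease Lonp1 had 2.07 in SAP and 2.44 in Control and the nucleotide exchange factor Grpel1 0.659 and 0.519. Among the cytosolic J-domain genes Dnajb2 had 1.97 in SAP and 1.73 in Control and Dnaja2 0.623 in each. The lists therefore held genes of both directions rather than 1 common shift, beside a median log2 ratio over all 6323 genes of 0.44 in SAP and 0.41 in Control.

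Gates by UMIs compared the members between kinds of T cell. Trdc encodes the constant region of the delta chain and marks gamma-delta T cells, Cd4 the co-receptor of helper and regulatory cells, Cd8a without Cd8b1 the CD8 alpha-alpha form common on intraepithelial cells, and Cd8b1 the beta chain of conventional CD8 cells. A gate needed 1 UMI of its gene and 0 of the other gate genes, except that the Cd8b1 gate may hold Cd8a. In SAP the gates held 528 (Trdc), 164 (Cd4), 1189 (Cd8a) and 537 (Cd8b1) cells, and in Control 659, 186, 1438 and 537. In all, 48.3% of SAP and 46.7% of Control T cells fell in none of the gates, and a cell with no UMI of a gate gene may still express it. Median depth lay between 3232.5 and 3580 UMIs in the 4 SAP gates and between 2972 and 3336 in the Control gates.

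The Cd4 gate held the highest Hspa1a level of the 4 gates in both libraries, in Control through a single cell in part. Hspa1a stood there at 1227 CPM in SAP and 842 in Control. In the Cd8b1 gate it stood at 670 and 621, in the Trdc gate at 664 and 722, and in the Cd8a gate at 599 and 465. The Cd4 gate over the Cd8b1 gate gave 1.83 (1.67 to 2.001) in SAP and 1.36 (1.23 to 1.499) in Control. One cell held 12.4% of the Hspa1a UMIs of the SAP Cd4 gate and 14.6% of those of the Control Cd4 gate, and without that cell the levels were 1080 and 723 CPM. In Control this was level with the 722 of the whole Trdc gate and less than 1.2-fold above the whole Cd8b1 gate. With the highest cell left out of every Control gate, Hspa1a stood at 723 CPM in the Cd4, 689 in the Trdc, 583 in the Cd8b1 and 452 in the Cd8a gate. The share of Cd4-gate cells with an Hspa1a UMI was 34.8% in SAP and 28.5% in Control, against 34.1% and 26.8% in the Cd8b1 gate, a smaller difference than that of the levels.

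Hspa1b did not share this pattern in both libraries, at 1146 CPM in the Cd4 gate against 859 in the Cd8b1 gate in SAP, but 746 against 873 in Control. Hsp90aa1 was lower in the Cd4 gate, at 1147 against 1450 in SAP, a ratio of 0.791 (0.728 to 0.859), and at 996 against 1286 in Control, a ratio of 0.775 (0.711 to 0.843). Hspd1 was lower too, with 0.721 (0.574 to 0.899) in SAP and 0.774 (0.612 to 0.972) in Control on 99 and 98 UMIs. In the Cd4 gate 1 of 10 members was thus past 1.2-fold higher than in the Cd8b1 gate in both libraries and 2 lower, where 11.3% and 16.1% of 4856 genes were. Without the low-marker barcodes these counts were the same, against 11.4% and 15.9% of genes.

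In the Trdc gate 0 of 10 members were past 1.2-fold in both libraries, against 17.5% of 5358 genes higher and 7.39% lower. Hspa5, the BiP gene, stood at 1193 CPM in the Trdc gate against 1060 in the Cd8b1 gate in SAP, a ratio of 1.13 (1.06 to 1.19), and at 1253 against 997 in Control, a ratio of 1.26 (1.18 to 1.33). Hspd1 had 1.29 (1.13 to 1.47) in SAP and 1.14 (0.984 to 1.32) in Control, but 0.964 and 0.905 without the low-marker barcodes. Those barcodes left out, 0 of 10 members were past the limit, against 15.9% higher and 7.09% lower. Hspa8 lay lower in the Trdc gate, with 0.787 (0.745 to 0.831) in SAP and 0.885 (0.839 to 0.933) in Control. Dnajb1 gave 0.692 (0.615 to 0.777) in SAP and 1.01 (0.895 to 1.14) in Control, below 1 in SAP alone.

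In the Cd8a gate 0 of 10 members were higher and 1 was lower than in the Cd8b1 gate in both libraries, against 20.6% and 7.43% of 5481 genes. That member was Dnajb1, at 258 CPM against 366 in SAP, a ratio of 0.704 (0.642 to 0.774), and 230 against 280 in Control, a ratio of 0.823 (0.740 to 0.916). Hspa1a, Hspa1b, Dnajb1, Hsph1, Hspa8, Hsp90aa1, Hsp90ab1 and Hspe1 all had ratios under 1 in both libraries, between 0.704 and 0.904. Hspa5 was the member above 1 in both, with 1.06 in SAP and 1.12 in Control. Without the low-marker barcodes Dnajb1 had 0.716 and 0.836, just inside 1.2-fold in Control, and Hspe1 was the 1 member past it, lower, against 19.7% of genes higher and 7.34% lower.

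**Figure D5:**
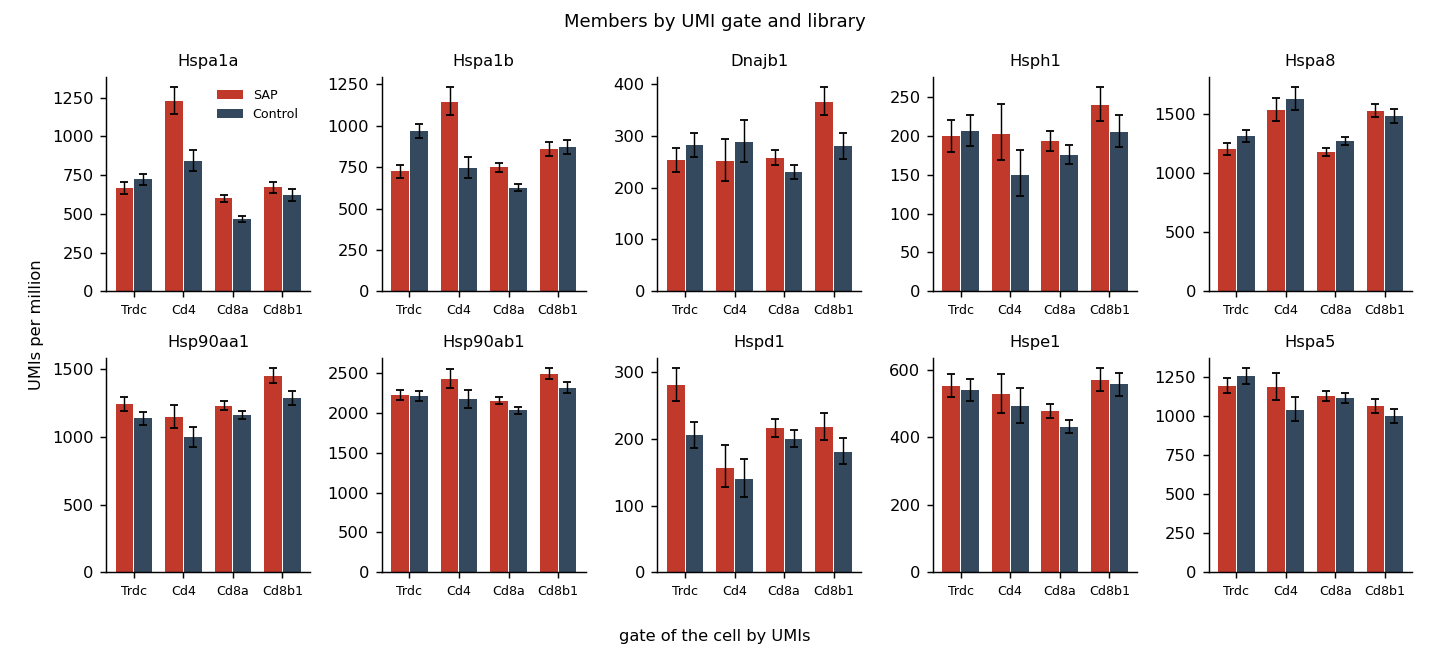
CPM (y axis, from 0) of each member in the Trdc, Cd4, Cd8a and Cd8b1 gates (x axis), SAP in red left of Control in blue, bars for exact 95% counting intervals. Hspa1a is highest in the Cd4 gate, at 1227 in SAP and 842 in Control, while Hsp90ab1 lies between 2030 and 2486 and Hspa5 between 997 and 1253.

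Of the other chaperone genes, 12 of 59 were past 1.2-fold higher in the Trdc gate than in the Cd8b1 gate in both libraries and 0 lower, or 8 and 3 without the low-marker barcodes. The share higher was near the 17.5% of all genes, of which 7.39% were lower. The 12 included Xbp1, a transcription factor of the unfolded protein response, at 1.48 in SAP and 1.53 in Control, Creld2, a secreted target of that response, at 1.56 and 1.43, and Fkbp5, a glucocorticoid-responsive HSP90 co-chaperone, at 1.82 in each. In the Cd8a gate 9 of 59 were higher and 2 lower, or 7 and 5 without those barcodes, 6 of the 9 from the endoplasmic reticulum list, with Hsp90b1 at 1.47 in each library and Creld2 at 1.87 in SAP and 1.67 in Control. The share higher lay below the 20.6% of all genes, of which 7.43% were lower. Hspa2, an HSP70 best known from testis, had 1.91 in SAP and 3.64 in Control in that gate.

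In the Cd4 gate 4 of 56 other chaperone genes were higher and 7 lower, or 4 and 8 without the low-marker barcodes, both shares below the 11.3% and 16.1% of all genes. Manf, a secreted protein of the endoplasmic reticulum, had 1.43 in SAP and 1.39 in Control, and Cdc37, which brings kinases to HSP90, had 1.27 and 1.28. Dnaja1 had 0.791 in SAP and 0.789 in Control, and Hspb11, an intraflagellar transport gene despite its name, 0.359 and 0.330. Over all genes tested the median log2 ratio in the 3 gates lay between -0.07 and 0.11.

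Between the libraries the members differed little. Over all T cells 0 of 10 were at least 1.2-fold apart, against 10.5% of 5642 genes higher in SAP and 2.16% lower (6.63% and 1.59% without the low-marker barcodes, with 0 of 10 members again). Hspd1 had the largest ratio of SAP over Control, 1.19 (1.13 to 1.24), which was 1.07 (1.01 to 1.12) without the low-marker barcodes. Hspa1a came next with 1.16 (1.13 to 1.19), and 1.198 (1.17 to 1.23) without them. Hspa8 was the only member lower in SAP, with 0.952 (0.934 to 0.969), and Hspa5 had 1.01 (0.991 to 1.03). The remaining 6, from Dnajb1 to Hsp90aa1, lay between 1.05 and 1.10.

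The median log2 ratio of the 10 members was 0.09, beside 0.05 over all genes, and 9 of 10 were above 1, or 4 of 10 when the libraries were scaled by TMM and 7 of 10 by median of ratios. TMM, a trimmed mean over genes, moved the median over all genes to -0.06 and that of the members to -0.01. Members with ratios close to 1 changed direction, Hspa1b, Dnajb1, Hsp90ab1, Hspe1 and Hspa5 under TMM and Dnajb1 and Hspa5 under median of ratios. Hspa1a, Hsph1, Hsp90aa1 and Hspd1 were above 1 under each scaling tried, with the low-marker barcodes in. For Hsph1 the margin was slight. Its log2 ratio of 0.105 was about as large as the TMM shift of the member median, from 0.090 to -0.014. The log2 ratio of Hspd1 was 0.247, but 0.094 without those barcodes. Of the other chaperone genes, 57 of 72 were above the level limit, of which 6 were at least 1.2-fold higher in SAP, a share near the 10.5% of all genes, and 0 lower, with a median log2 ratio of 0.07.

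Those 6 were Hsf1, with 36.9 CPM in SAP and 27.2 in Control and a ratio of 1.36 (1.204 to 1.53), the TRiC subunits Cct8 (1.30) and Tcp1 (1.21), the HSP90 activator Ahsa1 (1.30), the HSP110 relative Hspa4l (1.28) and the J-domain gene Dnajb4 (1.24). Without the low-marker barcodes 4 remained past 1.2-fold, Hsf1 at 1.38, Hspa4l at 1.27, Dnajb4 at 1.27 and Ahsa1 at 1.23, while Cct8 had 1.09 and Tcp1 1.14. Among the lists with no gene past the limit, St13 had 1.05 and Bag1 1.01, Hsp90b1 1.09 and Atf4 1.01, Hspa9 1.04 and Grpel1 0.974, and Hspb11 1.19.

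SAP and Control were also compared within gates, each gate again being cells of 1 library. In the Cd4 gate 3 of 10 members were at least 1.2-fold higher in SAP and 0 lower, where 25.6% and 15.4% of 3295 genes were: Hspa1b with 1.54 (1.37 to 1.72), Hspa1a with 1.46 (1.31 to 1.63) and Hsph1 with 1.35 (1.04 to 1.77). In the Cd8a gate Hspa1a alone was past the limit, at 599 CPM in SAP and 465 in Control, a ratio of 1.29 (1.22 to 1.36), against 16.4% of 5782 genes higher and 5.12% lower. In the Cd8b1 gate Dnajb1 had 1.31 (1.17 to 1.47) and Hspd1 1.204 (1.04 to 1.39), where 21.9% of 5457 genes were higher and 13.7% lower.

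In the Trdc gate 1 member was higher and 1 lower in SAP, where 26.2% and 12.9% of 5849 genes were. Hspd1 had 1.37 (1.2002 to 1.55) there, and 1.18 (1.01 to 1.38) without the low-marker barcodes. Hspa1b stood at 725 CPM in SAP against 971 in Control, a ratio of 0.747 (0.697 to 0.8002). Without the low-marker barcodes 0 members were higher and 1 lower in the Trdc gate (22.2% and 11.7% of genes), 3 and 0 in the Cd4 gate (24.9% and 15.8%), 2 and 0 in the Cd8a gate (12.9% and 4.04%) and 1 and 0 in the Cd8b1 gate (20.8% and 13.4%). With all T cells in, the share of members higher was thus near that of all genes in the Cd4 and Cd8b1 gates and below it in the Trdc and Cd8a gates.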

How the data were processed

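Single-cell RNA-seq of ileum T cells was deposited as 1 matrix of raw UMI counts per library, made with Cell Ranger 7.1.0 per the file headers, with mm10 and Seurat named in the submitters' processing notes and a 10x 3' kit of version 3 in the labels' protocols. Not given in the sources used here are the annotation version, the counting of reads that match several genes and any filter before deposit.

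Barcodes under 500 UMIs or 300 genes, or over 10% mitochondrial UMIs, were removed. Scrublet (scanpy 1.11.5) with its automatic threshold marked 0 SAP and 1 Control barcodes, so the highest scores up to the expected rate of 0.8% per 1000 barcodes were removed, 212 in SAP and 260 in Control. T cells had at least 2 UMIs of 11 T cell genes. Of 72 other chaperone symbols, 71 were matched. Ratios used summed UMIs with exact conditional binomial intervals, for genes of at least 20 CPM in 1 of the libraries compared and at least 50 UMIs, and a gene past 1.2-fold was counted by size alone, in the same direction in both libraries for gates and mitochondrial share. Overdispersion and correlations used genes of at least 50 CPM in both libraries. With 1 library per group there was no test across samples.

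All members were named. Of each chaperone list with a gene past 1.2-fold the 2 highest and 2 lowest could be named, otherwise the 2 of highest level. The members, lists and rules were chosen with earlier results of these data known. Scaling by TMM (edgeR 4.0.16) and by median of ratios (DESeq2 1.42.0, R 4.3.3), depth, filters, doublets and gate rules were varied. Python 3.11.15, numpy 2.4.6, scipy 1.17.1 and pandas 2.3.3 were used, and the ratio intervals and overdispersion values were tested on simulated data.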

Additional observations from a re-analysis of the deposited data

Results flagged for a closer look

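Hspa1b differed in direction between gates. Its ratio of SAP over Control was 0.747 (0.697 to 0.8002) in the Trdc gate and 1.54 (1.37 to 1.72) in the Cd4 gate, or 0.780 and 1.52 without the low-marker barcodes. Each gate holds cells of 1 library per group, so the difference between these ratios was not tested. Without the highest cell of each, Hspa1b in the Cd4 gate stood at 1058 CPM in SAP and 654 in Control.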

How the results depend on the processing

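No paired analysis was possible because each group has 1 library, and for the same reason no replicate could be left out. Of 126 main values under the alternatives run, 107 were classed as unchanged and 19 as moved. The margin behind these classes is not given here, so the counts do not measure robustness. The median ratio of the members changed sign with TMM, as did the ratios of the 5 members close to 1 named above, and Hspa8 was above 1 with cells of 2000 to 5000 UMIs. Between SAP and Control, 1 member was past 1.2-fold with all barcodes that pass the cell filters (Hspd1), with cells of 2000 to 5000 UMIs (Hspa1a) and with the highest 1% of cells left out (Hspa1a). The median log2 ratio of the members was 0.18 with cells of 2000 to 5000 UMIs, -0.014 with TMM and 0.010 with median-of-ratios scaling. The Cd8a gate had 2 members lower with a mitochondrial limit of 5% or with no doublet removal (Dnajb1 and Hsph1) and 4 with cells of 2000 to 5000 UMIs. Gates of at least 2 UMIs gave 1 member in the Trdc gate (Hspa5, higher) and 1 in the Cd4 gate (Hspa1a, higher). The median of 45 correlations in SAP was 0.31 with cells of 2000 to 5000 UMIs and 0.27 without the low-marker barcodes, and that in Control was 0.19 on a log scale. On that scale Hspa1a and Hspa1b had 0.66 in SAP and 0.66 in Control, Hspd1 and Hspe1 had 0.25 and 0.17, and the median of 5 correlations among the inducible genes in SAP was 0.31. The causes were not tested. Single-member log2 ratios of SAP over Control lay between -0.18 and 0.37 over 110 values, 44 of them outside the counting interval of the main value. Low counts limit some values, such as Hspd1 in the Cd4 gate, on 99 UMIs in SAP and 98 in Control.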
